A study of Mus musculus with 96 samples.

Results

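The livers compared here came from male C57BL/6J offspring fed a high-fat diet, and the comparison was between offspring of mothers whose light schedule was shifted during pregnancy and offspring of mothers on a constant schedule. It took in 24 of the 96 libraries of the series, namely every high-fat offspring library, with 12 from offspring of shifted mothers and 12 from offspring of control mothers. Shifted mothers had their light phase advanced by 8 h every 5 days during pregnancy, and control mothers stayed on a schedule of 12 h light and 12 h dark. All of these offspring started the high-fat diet at 4 weeks of age and ate it for 12 weeks. Livers were collected at zeitgeber times ZT0, ZT6, ZT12 and ZT18, counted in hours from lights on, with 3 replicates of each maternal arm at each time. The corresponding low-fat offspring, again 12 libraries with shifted and 12 with control mothers, entered the same fit. They shared in its scaling, its filter and its estimate of the spread, and so in the p-values of the high-fat comparison. Their own maternal difference is used below only to ask whether the maternal difference depended on diet. The labels do not say whether replicates were separate animals or came from separate litters, so p-values measure the spread between these libraries. Differences were taken within each time and averaged over the 4 times, so that they describe the level of a transcript and not its rhythm.

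The question of the comparison was whether the light schedule of the mother in pregnancy left a mark on the adult liver under a high-fat diet. Light is the main time cue of the mammalian clock, in which BMAL1 (gene Arntl) and its partner CLOCK activate the Period and cryptochrome genes that repress them. In liver, clock output and feeding signals together govern fatty acid synthesis, fat storage in droplets, fat oxidation and glucose release. Under a high-fat diet liver cells take up and store triglyceride, and the nuclear receptor PPAR-alpha, the lipogenic factor SREBP-1c and the sterol factor SREBP-2 are the best known transcriptional controls of these routes.

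Values are FPKM, the fragments of a transcript relative to its length and to all fragments mapped, divided by a scaling factor for each library, and log2 differences were fitted on scaled FPKM + 1, which understates the change of weakly expressed genes. Gene levels are comparable per length on this scale. Folds below are those of the fit. A gene is called where the limma adjusted p is under 0.05. Between shifted and control high-fat livers, 5252 of 10931 genes tested (48%) were called. Of all genes tested, 26.4% (2881) were higher and 21.7% (2371) were lower in shifted high-fat livers. Most of these differences were small. The median fold of a called gene was 1.33, and 124 genes were at least 2-fold higher and 27 at least 2-fold lower. In 341 genes (3.12%) the 12 shifted and the 12 control libraries did not overlap. The median log2 difference over all genes was 0.0135, and 0.208 with values as deposited, without the scaling factors. Counts given below for values as deposited carry that upward shift of all genes. In data simulated with known changes, the same fit recovered 98% of 2-fold and 83% of 1.5-fold changes of this comparison. Each size of change was placed in 100 genes above a minimum mean level, on the log2 scale of the fit. The simulated noise was independent between libraries and held no trend with transcript length or GC content. These shares therefore do not cover weakly expressed genes or data with such trends.

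Several properties of the libraries moved with the maternal arm and stand beside every result below. A transcript's difference followed its length. Across 10541 genes, which are not independent, its Spearman correlation was 0.441 with transcript length and -0.31 with GC content. Length and GC content here are those of the longest transcript listed for a gene, which need not be the one expressed in liver. Among transcripts of 80 to 1826 bases, the shortest of 5 equal bins, 5.02% of genes were higher and 43% lower in shifted high-fat livers, and in the bin of longest transcripts 51.6% were higher and 6.64% lower. The length trend of a single library, the correlation of transcript length with the gene's deviation from its mean over all offspring libraries, had a lowest, median and highest value of -0.195, 0.365 and 0.505 in shifted high-fat livers, against -0.398, -0.232 and 0.0249 in control high-fat livers. Only ZT18 replicate 2 among the shifted libraries was below 0, and only ZT0 replicate 1 among the control libraries was above it. With smooth GC and length trends removed from every library, 2161 genes (20.5%) were higher and 2384 (22.6%) lower, and 65.2% of the calls made before, among genes with length and GC values, kept their direction and call. The part of these trends in the result was not tested. Where a gene's difference is given with a call that ended after their removal, the adjusted p after removal stands in the same paragraph.

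**Figure D1:**
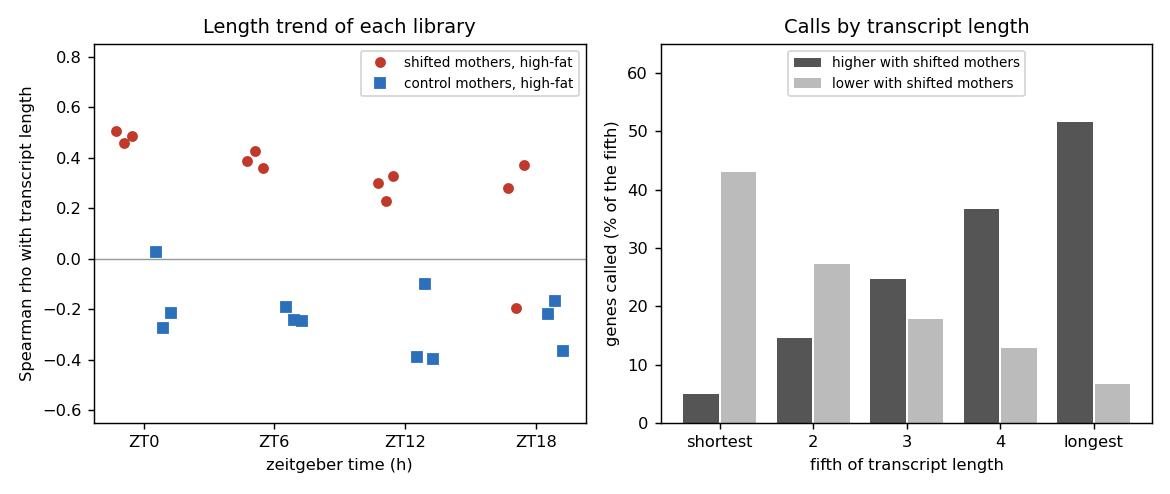
Length trend of each of the 24 high-fat libraries by time of day (left, Spearman correlation of transcript length with the gene's deviation from its mean over the offspring libraries, points are libraries), and share of genes called higher or lower with shifted mothers in 5 equal bins of transcript length (right, % of genes in the bin). All but 1 of the 12 shifted libraries lie above 0 and all but 1 of the 12 control libraries below it, and the share of higher genes runs from 5.02% in the shortest bin to 51.6% in the longest.

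The control arm held 2 libraries with a median correlation under 0.95 to the rest of their arm, ZT0 replicate 1 (0.886, with 2719 tested genes listed at 0, against at most 36 in any other high-fat library) and ZT12 replicate 2 (0.926). The shifted high-fat arm held 0 such libraries, and the low-fat arms held 3. Without these 5 libraries 6319 genes were called and 94.1% of the earlier calls were kept in the same direction. Scaling set the balance of the calls. Values as deposited gave 4972 higher and 907 lower genes, with a median log2 difference over all genes of 0.208, and upper quartile scaling gave 3138 and 1506 with a median of 0.0734. The 2 maternal arms were deposited as separate tables, and effects of table and of arm cannot be told apart.

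The largest rises in shifted high-fat livers included enzymes of fat synthesis. Gpam, the mitochondrial acyltransferase that attaches the first acyl chain to glycerol 3-phosphate (mm10 chromosome 19, 55067268 to 55127238, minus strand), had a lowest, median and highest level of 11, 38.9 and 56.4 FPKM in shifted high-fat livers, against 2.56, 4.58 and 14.4 FPKM in control high-fat livers. Every shifted library was above every control library except ZT18 replicate 2, which lay below ZT6 replicate 1 of the control arm. The log2 difference was 2.49 (SE 0.23, adjusted p = 2.88e-09), 5.63-fold, and 12 of 12 shifted libraries exceeded the mean of the controls at their own time. Scd3, a stearoyl-CoA desaturase, was at 0.65, 6.96 and 14.9 FPKM (lowest, median and highest) in shifted high-fat livers and at 0.0728, 0.292 and 2.15 in control high-fat livers. Only shifted ZT18 replicates 1 and 2 lay within the range of the control arm (log2 difference 2.27, SE 0.33, adjusted p = 1.32e-06). Scd3 has close copies in Scd1, Scd2 and Scd4, between which the counting of reads could divide fragments.

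Rnf125, an E3 ubiquitin ligase, and Sntb1, a syntrophin of the dystrophin complex, separated the arms completely. Rnf125 had a lowest, median and highest level of 13.7, 25.9 and 72.3 FPKM in shifted high-fat livers, against 1.86, 5.45 and 12.5 FPKM in control high-fat livers (log2 difference 2.23, adjusted p = 2.30e-07). Sntb1 was at 3.43, 9.69 and 15.1 FPKM in shifted and at 0, 1.89 and 3.05 FPKM in control high-fat livers (log2 difference 2.16, adjusted p = 1.14e-08). Its control value of 0 was that of ZT0 replicate 1, where Mia2 and Abhd2 were listed at 0 too. Mia2, an endoplasmic reticulum exit site protein needed for the export of large cargo, was at 6.21, 25.5 and 30.2 FPKM in shifted and at 0, 2.14 and 6.92 FPKM in control high-fat livers, and its arms met only at shifted ZT18 replicate 2 (log2 difference 2.82, adjusted p = 1.07e-08). Abhd2, a serine hydrolase of the lipase fold, rose by 2.18 on the log2 scale (adjusted p = 1.07e-08). Eif4ebp2, a repressor of cap-dependent translation, rose by 2.06 (adjusted p = 8.92e-08). The largest fitted rise was that of Tgoln2, a trans-Golgi network protein (log2 difference 3.07, adjusted p = 2.88e-09). All 12 control high-fat livers had it at 7.70e-07 to 0.00143 FPKM, while shifted high-fat livers ran from 2.18e-05 (ZT18 replicate 2) to 16.9. Its low-fat livers likewise held values above 1 and values near 0. With no counts in the tables a near-0 value can be a failed estimate, so no fold is given for it.

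The largest falls joined a secreted mucosal peptide, a translation repressor and detoxification proteins. Tff3, a trefoil factor (chromosome 17, 31125306 to 31129646, minus strand), had a lowest, median and highest level of 3.07, 11.7 and 70.7 FPKM in shifted high-fat livers, against 7.24, 58.6 and 682 FPKM in control high-fat livers. Both arms varied widely and overlapped, and the highest control values stood at ZT18 in replicates 1 and 2 (log2 difference -2.23, SE 0.45, adjusted p = 0.00013, 11 of 12 shifted libraries below the control mean of their time). Eif4ebp3, a relative of Eif4ebp2, was at 4.96, 10.9 and 61.8 FPKM in shifted and at 12.8, 44.6 and 91.7 FPKM in control high-fat livers. Its shifted libraries were low except for ZT18 replicates 1 and 2, which stood among the control libraries of that time (log2 difference -1.43, adjusted p = 2.41e-06). The 2 repressors thus moved in opposite directions, Eif4ebp2 higher and Eif4ebp3 lower.

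Igfbp2, a secreted binding protein of insulin-like growth factors (chromosome 1, 72824503 to 72852474, plus strand), was at 43.4, 138 and 223 FPKM in shifted high-fat livers, against 159, 299.8 and 453 FPKM in control high-fat livers. The arms overlapped over a part of their ranges, and all 12 shifted libraries lay below the control mean of their time (log2 difference -1.24, SE 0.19, adjusted p = 2.96e-06). Gstp2, a glutathione transferase, fell by 1.39 on the log2 scale (adjusted p = 1.69e-07), and its near-identical neighbour Gstp1 fell by 0.93 (adjusted p = 3.92e-05), so fragments of the pair cannot be assigned with certainty. Selenbp2, a selenium-binding protein, fell by 1.33 (adjusted p = 0.000762), and its close copy Selenbp1 was at a log2 difference of -0.25 (adjusted p = 0.00911, and 0.814 with GC and length trends removed). Scand1, a SCAN domain protein, fell by 1.16 (adjusted p = 7.19e-05), and H2afj, a histone variant, by 1.14 (adjusted p = 2.74e-06). The arms did not overlap for H2afj. Fabp5, a fatty acid-binding protein, ran from 4.56 to 20.4 FPKM in shifted high-fat livers, against 0 to 357 FPKM in control high-fat livers, and was lower at adjusted p = 0.0424 (log2 difference -1.15). That call was lost in 13 of the 24 fits that each omitted a library, and the log2 difference was -0.70 (adjusted p = 0.125) without control ZT12 replicate 1, the library at 357 FPKM.

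**Figure D2:**
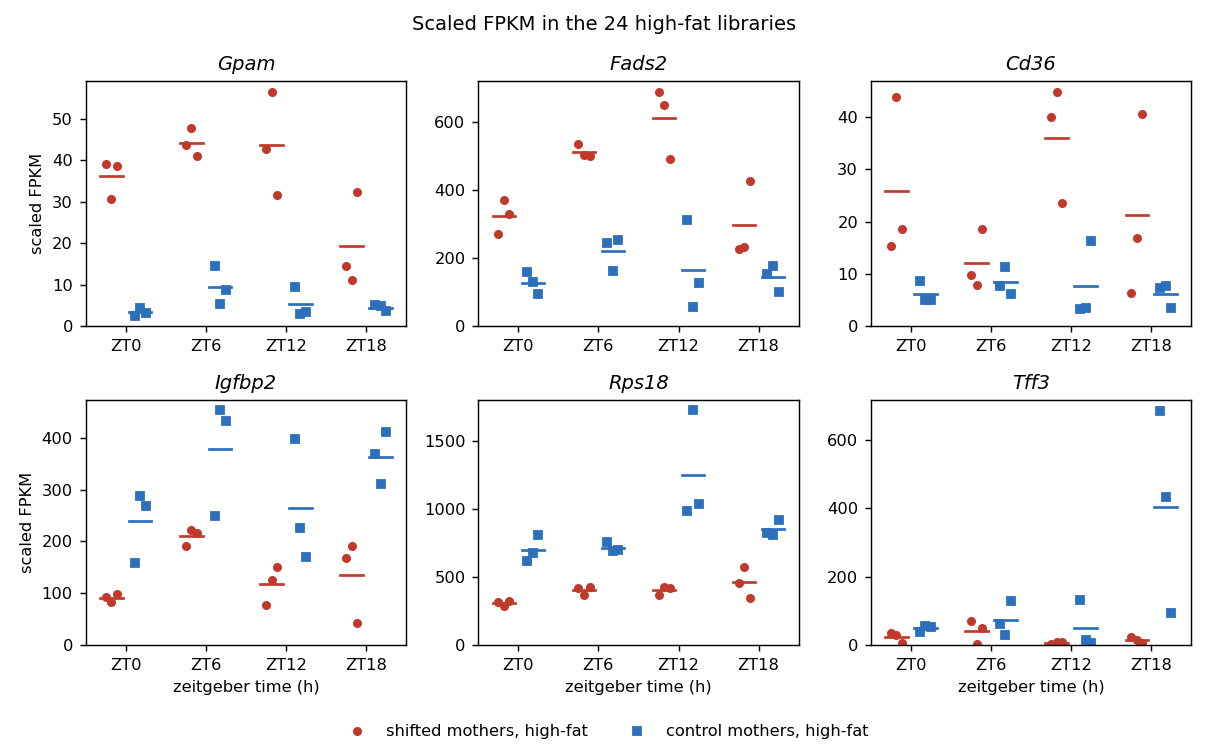
Scaled FPKM (vertical axes, linear) of 6 genes in the 24 high-fat libraries by zeitgeber time, with shifted mothers as circles left of control mothers as squares, each point a library and each line the mean of 3. Gpam, Fads2 and Cd36 sit higher with shifted mothers and Igfbp2, Rps18 and Tff3 lower, with Rps18 separating the arms completely and Gpam overlapping at 14.4 FPKM of a control library.

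Gene lists of liver pathways and cell types are described by their counts, beside 26.4% of all genes called higher and 21.7% called lower. The fatty acid synthesis list gave 9 higher and 1 lower of 13 members tested, with a median log2 difference of 0.70. Higher members covered the route from citrate to palmitate. Acly, which makes cytosolic acetyl-CoA, had a lowest, median and highest level of 36.5, 71.5 and 123 FPKM in shifted high-fat livers, against 17.3, 33.7 and 90.7 FPKM in control high-fat livers (log2 difference 0.95, SE 0.25, adjusted p = 0.00213). Acaca, the acetyl-CoA carboxylase that makes malonyl-CoA, was at 6, 10.4 and 17.4 FPKM in shifted and 3.88, 4.69 and 20.1 FPKM in control high-fat livers (log2 difference 0.71, adjusted p = 0.000537). Elovl6, the elongase of palmitate, rose by 0.81 on the log2 scale (adjusted p = 0.00411). For all 3 genes the arms overlapped, and at least 11 of 12 shifted libraries exceeded the mean of the controls at their own time. Fasn, fatty acid synthase, and Srebf1, which encodes SREBP-1, rose by 0.73 and 0.55. The call of Fasn ended with GC and length trends removed (adjusted p = 0.0533). The 1 lower member was Mlxipl, the carbohydrate-response factor ChREBP, which fell by 0.50. Thrsp, a lipogenic cofactor, was at a log2 difference of 0.03. With trends removed and low-correlation libraries left out together, a choice made after seeing the data, the list gave 5 higher and 1 lower members.

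The proximal promoters of Gpam and Fasn are shown because both genes belong to this group of higher lipid genes and hold the CCAAT box, the binding sequence of NF-Y, which is known to act beside SREBP at lipogenic promoters. They were chosen after the values had been seen, and for their CCAAT boxes. The same windows of Fads2, Scd3 and Acaca, which were higher as well, held none of the sequences counted below. Each printed promoter is the RefSeq window of 250 bases before to 50 after the first listed start of the gene, on the strand of the gene, and other starts may exist. Capitals mark the CCAAT box on either strand, at -74 in Gpam and at -90, -62 and -59 in Fasn, where the last 2 overlap. Gpam lies at GRCm38.p6 chr19:55127189-55127488 and Fasn at chr11:120824498-120824797, both on the minus strand.
Gpam: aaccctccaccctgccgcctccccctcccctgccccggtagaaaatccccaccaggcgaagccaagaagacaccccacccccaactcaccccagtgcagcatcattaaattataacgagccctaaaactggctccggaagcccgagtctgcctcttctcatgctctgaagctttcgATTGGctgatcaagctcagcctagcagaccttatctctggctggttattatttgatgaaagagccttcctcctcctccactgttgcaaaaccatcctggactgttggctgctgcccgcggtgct
Fasn: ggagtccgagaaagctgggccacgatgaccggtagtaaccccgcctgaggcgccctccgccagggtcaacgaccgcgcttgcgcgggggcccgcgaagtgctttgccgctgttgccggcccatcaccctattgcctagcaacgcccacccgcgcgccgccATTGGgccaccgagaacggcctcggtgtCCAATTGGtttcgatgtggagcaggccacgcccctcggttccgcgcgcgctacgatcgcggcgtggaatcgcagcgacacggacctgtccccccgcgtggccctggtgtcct
The CCAAT box (letters CCAAT, both strands) was in 57.9% of 19 promoters of fatty acid synthesis, desaturase and elongase genes with Gpam, against 39% of 8370 promoters of all genes tested that matched. The E-box CACGTG was in 10.5% and 10.6%, the sterol element TCACNCCAC in 5.26% and 1.16%, which is 1 promoter of the 19, and TATAAA in 5.26% and 7.36%. In 20 promoters of ribosomal protein genes the same 4 sequences were in 45%, 10%, 0 and 10%. A match describes letters in a window and says nothing of binding, and these shares were not tested.

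Desaturases and elongases gave 7 higher and 1 lower of 11 members, with a median of 0.58. Fads2, the delta-6 desaturase that starts the synthesis of long polyunsaturated fatty acids (chromosome 19, 10062765 to 10101746, minus strand), had a lowest, median and highest level of 227, 459 and 687 FPKM in shifted high-fat livers, against 55.3, 155 and 312 FPKM in control high-fat livers. The overlap came from shifted ZT0 replicate 1 and ZT18 replicates 1 and 2 (low) and control ZT12 replicate 1 and ZT6 replicates 1 and 3 (high) (log2 difference 1.45, SE 0.17, adjusted p = 6.47e-08). Fads6, a fatty acid desaturase family member, was at 6.93, 20.3 and 22.4 FPKM in shifted and 0, 5 and 10.9 FPKM in control high-fat livers (log2 difference 1.76, adjusted p = 5.74e-08). Elovl2 and Elovl5, the elongases of polyunsaturated chains, rose by 0.52 and 0.58, while Fads1, the delta-5 desaturase, was at 0.09 and was not called. Elovl1, the elongase of saturated very long chains, was the lower member (log2 difference -0.29, adjusted p = 0.000518), a call that ended with GC and length trends removed (adjusted p = 0.122). When low-correlation libraries were left out as well, 3 members were higher and 0 lower.

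Glycerolipid synthesis gave 3 higher and 2 lower of 10, shares near those of all genes, with a median of 0.07. Gpam and Mogat1, a monoacylglycerol acyltransferase at 0.76, had the largest rises. Agpat1, an acyltransferase of the next step, was at 2.92, 4.04 and 5.26 FPKM in shifted high-fat livers, against 5.07, 6.11 and 25 FPKM in control high-fat livers (log2 difference -0.77, adjusted p = 0.000215). Agpat3 rose by 0.26 (adjusted p = 0.0013, and 0.158 with GC and length trends removed). Dgat1, which completes triglyceride, fell by 0.26 (adjusted p = 0.00699, and 0.568 after that removal), and Dgat2, the other enzyme of that step, was at -0.08 and was not called. Lpin1 and Lpin2, the phosphatidate phosphatases, were at 0.13 and 0.15 and were not called either.

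Lipid droplet genes gave 6 higher and 0 lower of 16, with a median of 0.12, and 10 higher with values as deposited. Fitm2, an endoplasmic reticulum protein of droplet budding, had a lowest, median and highest level of 5.5, 12.2 and 19.1 FPKM in shifted high-fat livers, against 2.2, 3.37 and 5.84 FPKM in control high-fat livers. Only the edges of the arms met (log2 difference 1.44, SE 0.14, adjusted p = 6.21e-09). Plin2, the main droplet coat protein of hepatocytes, was at 171, 277 and 419.5 FPKM in shifted and 65.4, 156 and 229 FPKM in control high-fat livers (log2 difference 0.75, adjusted p = 0.000213). Mgll, monoacylglycerol lipase, rose by 0.50 (adjusted p = 0.000856). Cidec, a droplet fusion protein, and Cidea, its relative, rose by 1.46 and 1.13. Cidec stood also on the adipocyte marker list, and its levels were uneven. Its lowest, median and highest values were 0.582, 3.14 and 36.2 FPKM in shifted high-fat livers, with 4 libraries above every control library, and 0, 0.702 and 10.9 FPKM in control high-fat livers. The adipokine gene Cfd, another marker of that list, rose by 1.45 (adjusted p = 0.00409), and Adrb3, a beta-adrenergic receptor, fell by 0.78 (adjusted p = 0.0102). These 3 were the members tested of 8 listed, and without ZT0 the rises of Cfd and Cidec were not called. The fall of Adrb3 was not called with a pseudocount of 0.1 (adjusted p = 0.116) or without ZT12 (0.182). The adipocyte list summed to 4.05 to 73.8 FPKM (median 24.5) in shifted high-fat livers and to 0 to 54.6 FPKM (median 6.33) in control high-fat livers. Its defining markers Adipoq and Lep were at or near 0, with a highest value of 0.0373 and 0.00599 FPKM in shifted and of 0.0534 and 0 FPKM in control high-fat livers, and Plin1, Retn and Slc36a2 did not pass the filter either. The part of adipocytes in the levels of Cidec and Cfd was not tested.

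Fatty acid uptake and binding gave 5 higher and 4 lower of 15, shares near those of all genes, with a median of 0.04. Cd36, the fatty acid translocase of the cell surface (chromosome 5, 17781690 to 17888801, minus strand), had a lowest, median and highest level of 6.28, 18.6 and 44.8 FPKM in shifted high-fat livers, against 3.28, 6.78 and 16.3 FPKM in control high-fat livers. Shifted libraries were spread widely, and ZT0 replicate 1, ZT6 replicates 1 and 2 and ZT18 replicate 1 lay within the range of the control arm (log2 difference 1.49, SE 0.28, adjusted p = 4.73e-05, 11 of 12 in that direction). Slc27a4, a fatty acid transporter, rose by 0.38 (adjusted p = 0.000314). Fabp1, the liver fatty acid-binding protein and one of the most abundant liver transcripts, was at 8327, 12435 and 17447 FPKM in shifted and 11259.8, 16042 and 30584 FPKM in control high-fat livers (log2 difference -0.50, adjusted p = 0.00283). Values as deposited gave this list 7 higher and 0 lower members, without ZT12 it gave 2 and 1, and with GC and length trends removed 3 and 3. With 1 library left out, 1 to 4 members were lower, and it was 1 without shifted ZT6 replicate 2, ZT12 replicate 3 or ZT18 replicate 3.

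PPAR-alpha targets and ketogenesis gave 8 higher and 1 lower of 22, with a median of 0.43. Ppara itself was at 20.9, 36 and 51.7 FPKM (lowest, median and highest) in shifted high-fat livers, against 17.4, 23 and 38.6 FPKM in control high-fat livers (log2 difference 0.62, adjusted p = 0.000141). Cpt1a, the carnitine acyltransferase that admits long chains into mitochondria, was at 54.9, 91.1 and 127 FPKM in shifted and 37, 51.1 and 79.6 FPKM in control high-fat livers (log2 difference 0.66, SE 0.13, adjusted p = 8.72e-05). For both genes the arms overlapped and all 12 shifted libraries exceeded the mean of the controls at their own time. Ehhadh, Acot1, Bdh1 and Vnn1 were among the other higher members. Fabp1 was the lower member. The classical fasting targets Cyp4a14, Pdk4, Fgf21 and Angptl4 were at 1.20, 0.41, 0.47 and -0.41 and were not called. The list gave 14 higher and 0 lower with values as deposited, and 5 and 0 without ZT12.

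Mitochondrial beta-oxidation gave 7 higher and 1 lower of 17, with a median of 0.13. Etfdh, the dehydrogenase that passes electrons from the electron-transferring flavoprotein to ubiquinone, had a lowest, median and highest level of 86, 114 and 122 FPKM in shifted high-fat livers, against 19.7, 62 and 89.9 FPKM in control high-fat livers (log2 difference 0.81, adjusted p = 5.25e-05). Etfb, a subunit of that flavoprotein, was at 247, 329.6 and 499.6 FPKM in shifted and 441, 509.6 and 800.1 FPKM in control high-fat livers (log2 difference -0.70, adjusted p = 6.61e-07). Acadm, the medium-chain acyl-CoA dehydrogenase, was at 111, 141 and 197 FPKM in shifted and 76.7, 99.2 and 153 FPKM in control high-fat livers (log2 difference 0.52, adjusted p = 1.59e-05). The arms overlapped only over a part of their ranges in each of these, and every shifted library lay on the same side of the control mean of its time. Both subunits of the trifunctional protein, Hadha and Hadhb, rose by 0.52 and 0.61. In values as deposited 12 members were higher and 1 lower.

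Cholesterol genes gave 4 higher and 3 lower of 24, with a median of -0.17, and 17 were not called, so both shares were below those of all genes. With 1 library left out, 2 to 6 members were lower, 6 of them without control ZT6 replicate 2 or shifted ZT6 replicate 3. There were 5 lower with GC and length trends removed or without ZT12 and 10 with array weights, and values as deposited gave 6 higher and 1 lower. The higher members included Stard4, a sterol transporter, Srebf2, which encodes SREBP-2, and Hsd17b7. Stard4 was at 6.91, 14.2 and 30.3 FPKM in shifted and 1.67, 4.95 and 11.3 FPKM in control high-fat livers (log2 difference 1.47, adjusted p = 7.09e-07). The arms of Stard4 overlapped over a part of their ranges. Srebf2 rose by 0.50 (adjusted p = 0.000195), while Insig1, which retains the SREBP precursors in the endoplasmic reticulum, was at -0.06 and was not called. Fdft1, Nsdhl and Ebp were the lower members, at -0.50, -0.70 and -0.38.

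The gluconeogenesis, glycogen and glucose sensing list gave 9 higher and 1 lower of 20, with a median of 0.29. Pcx, pyruvate carboxylase, had a lowest, median and highest level of 80.3, 105 and 154 FPKM in shifted high-fat livers, against 54, 69.3 and 98.3 FPKM in control high-fat livers (log2 difference 0.62, adjusted p = 1.44e-05). Slc2a2, the GLUT2 glucose transporter, was at 55.4, 81.5 and 137 FPKM in shifted and 26.6, 45.1 and 78.5 FPKM in control high-fat livers (log2 difference 0.83, adjusted p = 4.03e-05). In both genes the arms overlapped and all 12 shifted libraries exceeded the mean of the controls at their own time. Irs2, an adaptor of the insulin receptor, rose by 0.58 (adjusted p = 0.000261) at levels near 1 FPKM. Fbp1 and G6pc, the phosphatases of gluconeogenesis, rose by 0.80 and 0.76, whereas Pck1, the carboxykinase before them, was at -0.03 and was not called. Pfkfb1 was the lower member. Without ZT12 the list gave 5 higher and 0 lower.

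Apolipoproteins and genes of very low-density lipoprotein assembly gave 3 higher and 6 lower of 15, with a median of -0.24. Apoa1, the main protein of high-density lipoprotein (chromosome 9, 46228580 to 46230466, plus strand), had a lowest, median and highest level of 5049.5, 7937 and 10699 FPKM in shifted high-fat livers, against 11952, 13312 and 17078 FPKM in control high-fat livers, with no overlap (log2 difference -0.84, SE 0.13, adjusted p = 2.13e-06). Apoc4, of the Apoe cluster, was at 1138, 1675 and 2413 FPKM in shifted and 2207, 2564 and 7126 FPKM in control high-fat livers (log2 difference -0.85, adjusted p = 1.45e-06). Apoc3, an inhibitor of lipoprotein lipase, fell by 0.79 (adjusted p = 2.88e-06), and Apoa2, Apoc1 and Apoe were lower too (for Apoe adjusted p = 0.00107, and 0.292 with GC and length trends removed). Apob, the scaffold of very low-density lipoprotein, Mttp, which loads it with lipid, and Apom rose by 0.79, 0.61 and 0.75. With GC and length trends removed the list gave 5 higher and 5 lower, with a median of -0.06.

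The unfolded protein response list gave 5 higher and 1 lower of 22, both shares below those of all genes, with a median of 0.02 near that of all genes. Dnajb9, a co-chaperone of BiP, had a lowest, median and highest level of 18.3, 27.8 and 50.3 FPKM in shifted high-fat livers, against 5.3, 13.1 and 25.9 FPKM in control high-fat livers, with overlap (log2 difference 1.23, adjusted p = 4.65e-06). Sel1l and Edem1, of the degradation pathway for misfolded proteins, rose by 0.55 and 0.47 (adjusted p = 0.000229 and 7.04e-05). Atf4, a stress transcription factor, fell by 0.59, and the chaperone genes Hspa5 (BiP), Hsp90b1 and Pdia4 and the regulator gene Xbp1 were at 0.15, 0.05, 0.23 and -0.20 and were not called. In values as deposited 8 were higher and 1 lower.

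The list of growth hormone axis and male-biased liver genes gave 1 higher and 5 lower of 20, a share of lower genes near that of all genes, with a median of -0.26. Beside Igfbp2, the lower members were Igfals, Serpina3k, Nudt7 and Igf1. The call of Igfals (log2 difference -0.32, adjusted p = 0.0158) ended with GC and length trends removed (adjusted p = 0.163). Igf1, the circulating growth factor, was at 87.8, 118 and 156 FPKM in shifted high-fat livers, against 126, 159.6 and 221 FPKM in control high-fat livers. Its arms overlapped and all 12 shifted libraries lay below the control mean of their time (log2 difference -0.47, adjusted p = 3.73e-05). Stat5b, which carries the growth hormone signal, was the higher member (log2 difference 0.41, adjusted p = 0.00199). Values as deposited gave this list 2 higher and 2 lower members and a median of -0.0066, below the 0.208 of all genes on that scale. Complement and coagulation genes gave 5 higher and 7 lower of 25, shares near those of all genes, with a median of -0.12. Values as deposited gave 10 higher and 2 lower. Without ZT12 there were 1 higher and 7 lower, and with 1 library left out 3 to 7 were higher. Proc, the anticoagulant protein C, was at 173, 235 and 277 FPKM in shifted and 293, 352 and 596 FPKM in control high-fat livers with no overlap (log2 difference -0.68, adjusted p = 3.83e-08). F5, the procoagulant factor V, which activated protein C inactivates, was at 36.3, 59.6 and 65.2 FPKM in shifted and 21.3, 37.2 and 42.5 FPKM in control high-fat livers (log2 difference 0.68, adjusted p = 7.01e-07), and Kng1, kininogen, fell by 0.59 (adjusted p = 9.69e-07).

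Subunits of the ribosome and of the respiratory chain gave more lower members than any other list described here. Of 28 cytosolic ribosomal protein genes 22 were lower and 0 higher, with a median of -0.63. Rps18, of the small subunit (chromosome 17, 33951999 to 33956001, minus strand), had a lowest, median and highest level of 284, 392 and 574 FPKM in shifted high-fat livers, against 616, 806 and 1728 FPKM in control high-fat livers, with no overlap (log2 difference -1.13, SE 0.12, adjusted p = 1.19e-08). Rpl7a and Rpl19, of the large subunit, fell by 0.75 and 0.84 (adjusted p = 1.58e-08 and 1.98e-08), and the arms did not overlap for Rpl7a. The members not called were Rpl3, Rpl4, Rpl5, Rplp0, Rps3 and Rps4x, at -0.08 to -0.20. Ribosomal protein genes have many processed copies in the genome, and the sources used here do not say how reads with several matches were counted. Their longest listed transcripts are short, 1151 bases for Rps18 and 1043 for Rpl7a against 6172 for Gpam, and length moved with the maternal arm. With GC and length trends removed 22 were still lower and 0 higher, with a median of -0.41. Values as deposited gave 20 lower and 0 higher.

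Oxidative phosphorylation gave 3 higher and 17 lower of 25, with a median of -0.39. Ndufa1, of complex I, had a lowest, median and highest level of 149.9, 178 and 275 FPKM in shifted high-fat livers, against 243, 330.3 and 431 FPKM in control high-fat livers (log2 difference -0.78, adjusted p = 3.83e-08). Cox6c, of complex IV, and Atp5o, of the ATP synthase, fell by 0.82 and 0.68 (adjusted p = 3.36e-07 and 3.74e-07). In all 3 genes the arms overlapped over a part of their ranges and every shifted library lay below the control mean of its time. The higher members were Ndufs1, of complex I, Sdha, of complex II, and Atp5b, of the ATP synthase, which rose by 0.66, 0.71 and 0.42. With GC and length trends removed the list gave 4 higher and 14 lower, and values as deposited gave 8 higher and 10 lower. The median of the list was -0.13 as deposited, against 0.208 over all genes on that scale.

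**Figure D3:**
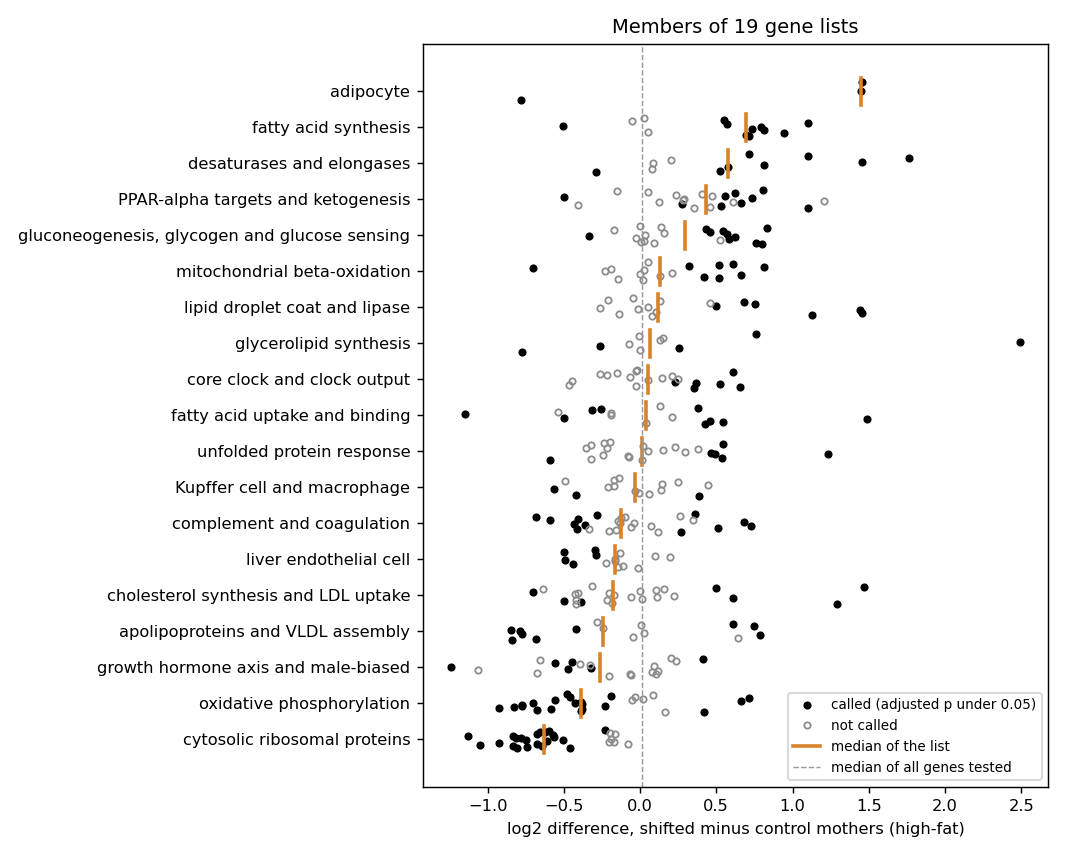
Log2 difference (horizontal axis, shifted minus control mothers, on scaled FPKM + 1) of each tested member of 19 gene lists, filled where called and open where not, with the median of the list as a bar and that of all genes as a dashed line. Fatty acid synthesis, desaturases and PPAR-alpha targets have medians of 0.70, 0.58 and 0.43, and oxidative phosphorylation and ribosomal proteins of -0.39 and -0.63.

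Lists of cell markers were examined for other cells of the liver. In bulk tissue fewer cells of a type and less RNA per cell cannot be told apart. Liver endothelial markers gave 0 higher and 5 lower of 14, with a median of -0.17, and summed to 66.1 to 124 FPKM (median 101) in shifted high-fat livers and to 92.9 to 148 FPKM (median 125) in control high-fat livers. Fcgr2b, an Fc receptor of sinusoidal endothelium, was at 8.98, 14.4 and 18.7 FPKM in shifted and 12, 19.9 and 26.7 FPKM in control high-fat livers (log2 difference -0.49, adjusted p = 7.69e-05), and the scavenger receptor Stab1 and the lectin Clec4g fell by 0.50 and 0.44 (adjusted p = 0.00107 and 0.00153). The call of Clec4g ended with GC and length trends removed (adjusted p = 0.102), with values as deposited (0.174), with upper quartile scaling (0.0518) and without ZT12 (0.073). Values as deposited gave 1 higher and 2 lower endothelial members, and without ZT12 there were 0 and 1. Kupffer cell and macrophage markers gave 1 higher and 2 lower of 15, with a median of -0.03 and sums of 104 to 244 FPKM in shifted and 118 to 294 FPKM in control high-fat livers. Cd68 and C1qa fell by 0.57 and 0.42 and Adgre1 rose by 0.39 (adjusted p = 0.0128, 0.0245 and 0.0143), and after removal of GC and length trends these had an adjusted p of 0.23, 0.785 and 0.0787 and 0 macrophage markers were called. Hepatocyte markers gave 1 higher and 5 lower of 10 and summed to 57630 to 94990 FPKM in shifted and 85880 to 131300 FPKM in control high-fat livers. Their lower members included Apoa1, Apoa2 and Fabp1, and Alb, albumin, was at a log2 difference of -0.12 and was not called.

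The 5 clock genes followed by time were highest at the same time in both arms. Of 19 clock and clock output genes 6 were higher, a share near that of all genes, and 0 lower, with a median of 0.05. With GC and length trends removed 3 were higher and 1 lower. Arntl averaged 8.77 ± 0.85, 0.54 ± 0.093, 0.959 ± 0.18 and 6.46 ± 0.74 FPKM at ZT0, ZT6, ZT12 and ZT18 in shifted high-fat livers, against 5.7 ± 0.21, 0.216 ± 0.047, 0.755 ± 0.59 and 5.02 ± 0.39 FPKM in control high-fat livers (SD, n = 3). It was thus high at ZT0 and ZT18 and low at ZT6 and ZT12 in both arms, and higher in shifted livers on average (log2 difference 0.35, SE 0.14, adjusted p = 0.0347). That call was lost in 7 of the 24 fits that each omitted a library (without control ZT12 replicate 1, for example, 0.28 with an adjusted p of 0.085) and with GC and length trends removed (adjusted p = 0.237). Clock rose by 0.52 (adjusted p = 0.00356, and 0.0736 after trend removal). Rora, a nuclear receptor that activates Arntl, was at 4.35, 5.43 and 6.9 FPKM in shifted and 1.99, 3.18 and 4.29 FPKM in control high-fat livers with no overlap (log2 difference 0.61, adjusted p = 0.00114). Bhlhe40, a transcriptional repressor of clock genes, rose by 0.65 (adjusted p = 0.00184), and Cry1 and Cry2 by 0.37 and 0.23 (for Cry2 adjusted p = 0.0432, and 0.0671 after trend removal).

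Dbp, a clock output factor, averaged 0.231 ± 0.054, 39.5 ± 2.7, 17.7 ± 2.3 and 1 ± 0.43 FPKM at the 4 times in shifted high-fat livers, against 0.208 ± 0.20, 60.6 ± 8.5, 30.1 ± 19 and 2.12 ± 0.4 FPKM in control high-fat livers. Its peak stood at ZT6 in both arms and its average difference missed the threshold (log2 difference -0.45, adjusted p = 0.0711). Per2 was highest at ZT12 in both arms, at 7.47 ± 1.4 FPKM in shifted and 17.4 ± 14 FPKM in control high-fat livers, where the control mean rested on 33.5 FPKM in ZT12 replicate 2. Nr1d1, the repressor REV-ERB alpha, peaked at ZT6 at 28.6 ± 5 FPKM in shifted and 27.9 ± 2.1 FPKM in control high-fat livers. Npas2, which can stand in for Clock, was at 2.01 ± 0.062 FPKM at ZT0 in shifted and 2 ± 0.6 FPKM in control high-fat livers, and at 0.669 ± 0.55 and 0.0793 ± 0.047 FPKM at ZT18. Per2, Nr1d1 and Npas2 had average log2 differences of -0.26, -0.06 and 0.15 and were not called.

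**Figure D4:**
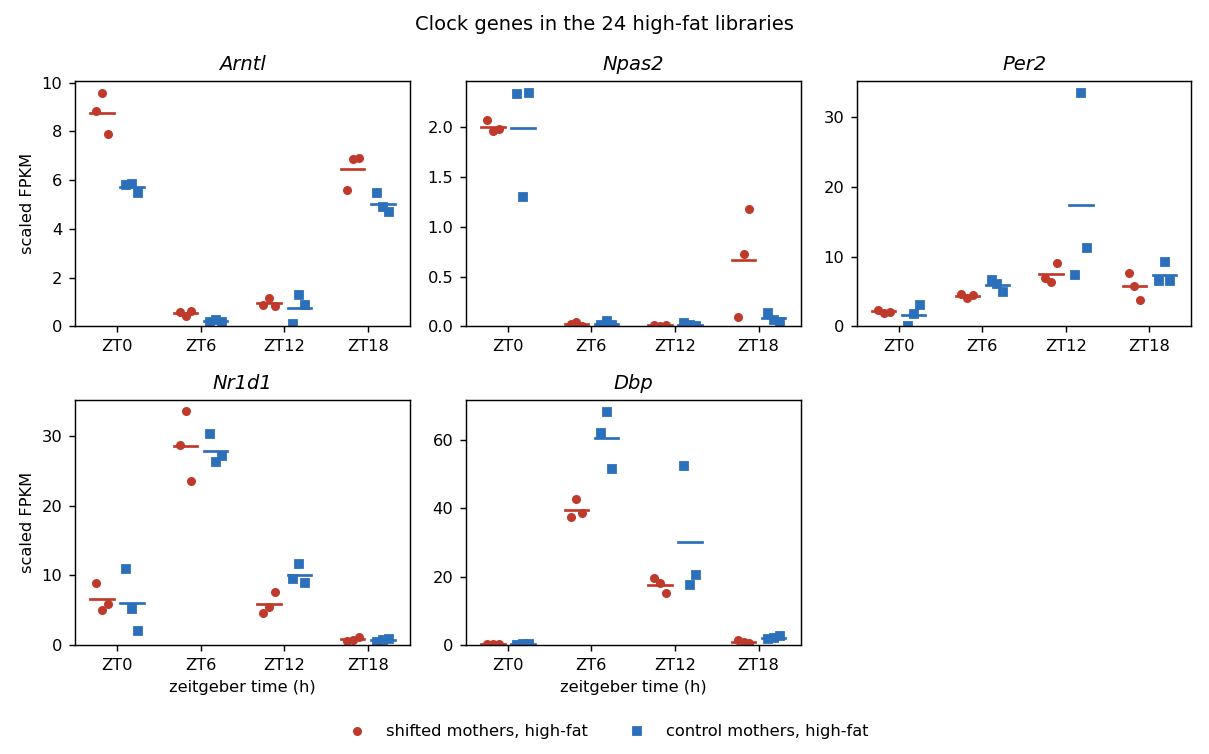
Scaled FPKM (vertical axes, linear) of 5 clock genes by zeitgeber time in the 24 high-fat libraries, shifted mothers as circles left of control mothers as squares, each point a library and each line the mean of 3. Arntl and Npas2 are high at ZT0, Nr1d1 and Dbp peak at ZT6 and Per2 at ZT12 in both arms, and 1 control library at ZT12 stands at 33.5 FPKM for Per2.

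Whether the maternal difference changed with the time of day was asked by a test of the daily profile, which called 0 of 10931 genes (0%) by limma, while 817 had an unadjusted p under 0.05. The smallest p-values belonged to Mreg, Rdh10, Ubqln2, Zbtb14 and Golph3 (adjusted p = 0.553 for each), and no clock gene passed. Cosine and sine terms in place of 4 free means called 0 genes as well. Taken at each time, the arms differed in 2050 genes higher (18.8%) and 1207 lower (11%) at ZT0, 11 (0.101%) and 2 (0.0183%) at ZT6, 1676 (15.3%) and 1776 (16.2%) at ZT12 and 5 (0.0457%) and 3 (0.0274%) at ZT18. These counts depended on which libraries entered the fit. Without the low-correlation libraries they were 1599 and 1463 at ZT0, 845 and 335 at ZT6, 2058 and 1322 at ZT12 and 204 and 90 at ZT18. Leaving them out removed 1 high-fat library at ZT0, 1 at ZT12 and 0 at ZT6 and ZT18. The median absolute log2 difference went from 0.354 to 0.278 at ZT0 and from 0.354 to 0.293 at ZT12. It went from 0.196 to 0.2 at ZT6 and from 0.177 to 0.178 at ZT18. The counts therefore do not measure how the size of the difference varied with time, and the cause of their change was not tested. Of the 5252 genes called on average, 4695 had the same sign at all 4 times. They were called by the mean of the same 4 differences, which favours a shared sign, so this count is no test of agreement between times. The count of calls was 5157 without ZT18, 4937 without ZT6, 4086 without ZT0 and 3659 without ZT12.

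Offspring on the low-fat diet were used to ask whether the maternal difference depended on diet. There 1 of 10931 genes (0.00915%) was called between shifted and control mothers, and 813 had an unadjusted p under 0.05. The called gene was Reln, a matrix glycoprotein of stellate cells, at 3.16 FPKM on average in shifted and 2 FPKM in control low-fat livers (adjusted p = 7.47e-05). This count does not measure dependence on diet. Of the 5252 genes called on the high-fat diet, 3497 had the same direction on the low-fat diet and the rest the opposite. The shifted low-fat libraries were also uneven, with length trends of -0.531 to 0.467 and GC trends of -0.439 to 0.548. A test of the difference itself called 1525 genes (14%) in which the maternal difference was more positive under high-fat diet and 1111 (10.2%) in which it was more negative. Gpam differed by 2.08 on the log2 scale between the diets (adjusted p = 0.000186), with a maternal difference of 2.49 on the high-fat diet and 0.41 on the low-fat diet. Cd36 differed by 1.85 (adjusted p = 0.00159), with 1.49 on high-fat and -0.36 on low-fat diet. Gpam and Cd36 were named for their high-fat difference, which is a term of this test, so their choice favours a call in that direction. Among the lists, 21 of 28 ribosomal protein genes and 12 of 25 oxidative phosphorylation genes had a more negative maternal difference on high-fat diet. A more positive one was found in 12 of 22 PPAR-alpha genes and 4 of 16 lipid droplet genes. These lists too were picked after their high-fat results were seen, which favours calls in the same direction. The part of length and GC trends in these counts was not tested. Fatty acid synthesis gave 0 of 13 in either direction. Acaca and Elovl6, for example, were at log2 differences of 0.71 and 0.81 on high-fat and 0.47 and 0.63 on low-fat diet, so a dependence of that pathway on diet was not shown.

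The smallest p-values of the diet test were those of Gldc, Sh3bgrl2, Prdx4, Tmem64 and Fbxo3. Fbxo3, an F-box protein, was at 18.6, 35 and 42.2 FPKM (lowest, median and highest) in shifted high-fat livers, against 11.4, 13.9 and 18 FPKM in control high-fat livers with no overlap, with maternal log2 differences of 1.22 on high-fat and 0.07 on low-fat diet (difference between diets 1.15, adjusted p = 0.000159). Gldc, the glycine decarboxylase of mitochondria, had maternal differences of 0.84 and -0.19, and Prdx4, a peroxiredoxin of the endoplasmic reticulum, of -0.67 and 0.23 (adjusted p = 0.000152 and 0.000152). The trends differed between the diets. On the low-fat diet the maternal difference had a Spearman correlation across genes of 0.163 with transcript length, against 0.441 on the high-fat diet, and of 0.204 with GC content, against -0.31 on the high-fat diet, so the GC trend had the opposite sign. With GC and length trends removed, 832 genes had a more positive and 886 a more negative maternal difference on high-fat diet.

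**Figure D5:**
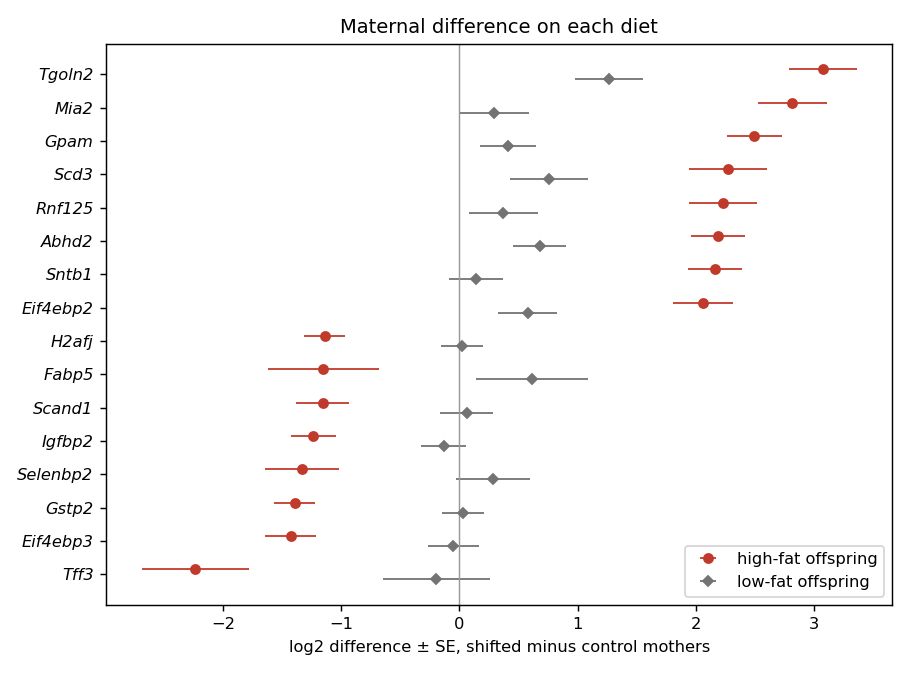
Log2 difference between offspring of shifted and of control mothers (horizontal axis, mean over 4 times, bars are SE of the fit) for the 8 largest rises and 8 largest falls, in high-fat offspring (circles, 12 libraries an arm) and low-fat offspring (diamonds, 12 libraries an arm). The genes were chosen by their high-fat difference. For Gpam, as an example, it was 2.49, against 0.41 on the low-fat diet.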

How the data were processed

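Poly(A) RNA of liver was sequenced with a stranded protocol, per the labels' protocols. The authors deposited FPKM values in a table for each arm, made with TopHat2 2.1.1 and Cufflinks 2.2.1 on mm10, per the submitters' processing notes. The annotation, the filters and the treatment of reads with several matches were not given in the sources used here. The tables hold no counts, so the depth of the libraries is unknown and no counting interval can be given.

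Of 24883 entries, 817 that shared 280 symbols were left out. The deposited FPKM of 48 offspring libraries were divided by median-of-ratios factors (8521 genes), genes with at least 1 FPKM in at least 3 libraries were kept (10931), and log2(scaled FPKM + 1) was fitted with 16 means of arm and time in limma 3.58.1 (R 4.3.3, trended variance, 32 residual degrees of freedom, Benjamini-Hochberg adjustment over all genes tested). The level comparison averaged 4 differences, the profile test was an F test of whether they differ between times, and the diet test took the high-fat minus the low-fat difference. The steps were tested on simulated data. Of the genes tested 96.4% had GC content and length from GENCODE M21 transcripts on mm10, taking the longest transcript of any type for each symbol. Promoters were RefSeq windows, matched by symbol for 8370 genes.

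No 2 replicates of the same arm and time held identical values, and libraries of different arms or times were not compared in this way. Alternatives were another pseudocount, no filter, values as deposited, upper quartile scaling, a replicate block, removal of GC and length trends, a fit of the 24 high-fat libraries alone, array weights, and leaving out low-correlation libraries, each library or each time.

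The members and the gene lists were chosen with earlier results of these data known. Genes were named by rule, taking from the called genes (mean of at least 1 FPKM in an arm) the 8 that rose most and the 8 that fell most, the 3 called members of smallest p in each list, 5 clock genes by time, and the 5 smallest p of the profile and diet tests. Some genes are not reported here, though the counts of their lists include them. Of 48 lists, the 19 described in detail were picked after the results of all lists were seen, and counts of the other 29 are given with the other observations. Further list members named with a log2 difference, Selenbp1, the printed promoters and the genes in the figures were also chosen after their values were seen.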

Additional observations from a re-analysis of the deposited data

Results flagged for a closer look

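The maternal difference depended on diet, by the limma test of the difference itself (adjusted p under 0.05 over 10931 genes, of which 14% were called more positive and 10.2% more negative on the high-fat diet), in 56 of the genes named in the text or in its figures. Values are the log2 maternal difference on the high-fat diet minus that on the low-fat diet, with 12 libraries an arm in each diet. Most of these genes were named for their high-fat difference, by its size or its p-value. The same high-fat difference is a term of the diet test, so this choice favours diet calls in its direction. The count of 56 therefore does not measure how common a dependence on diet was. Genes named by the diet test itself are not among the 56.

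In 30 genes the maternal difference was more positive on the high-fat diet. Largest were Mia2 at 2.52, Gpam at 2.08, Sntb1 at 2.02, Rnf125 at 1.86, Cd36 at 1.85, Tgoln2 at 1.81, Cfd at 1.79, Cidec at 1.64 and Scd3 at 1.51. Next stood Abhd2 at 1.51, Eif4ebp2 at 1.48, Fitm2 at 1.29, Fads6 at 1.19, Fads2 at 1.16, Dnajb9 at 1.13, Stard4 at 1.06, Etfdh at 0.99 and Plin2 at 0.99. These were followed by Mgll at 0.75, Acadm at 0.73, Slc2a2 at 0.69, Clock at 0.69, F5 at 0.64, Pcx at 0.62, Rora at 0.62, Cpt1a at 0.61 and Srebf2 at 0.57. The smallest of them were Ppara at 0.56, Arntl at 0.54 and Sel1l at 0.48.

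In 26 genes it was more negative on the high-fat diet. The first of them by size were Tff3 at -2.04, Fabp5 at -1.76, Selenbp2 at -1.61, Gstp2 at -1.42, Eif4ebp3 at -1.38, Scand1 at -1.22, H2afj at -1.16, Igfbp2 at -1.10 and Rps18 at -0.99. After these stood Apoa1 at -0.82, Dbp at -0.78, Apoc3 at -0.74, Clec4g at -0.72, Rpl19 at -0.68, Apoc4 at -0.66, Proc at -0.65, Atp5o at -0.62 and Ndufa1 at -0.59. The remaining ones were Rpl7a at -0.58, Stab1 at -0.56, Etfb at -0.55, Cox6c at -0.52, Fcgr2b at -0.51, Kng1 at -0.50, Igf1 at -0.45 and Elovl1 at -0.32.

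No explanation was weighed for these differences, and the length and GC trends of the maternal difference were not the same on both diets (Spearman correlation with length 0.441 on high-fat and 0.163 on low-fat diet, with GC content -0.31 and 0.204). Their part in these differences was not tested.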

How the results depend on the processing

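Calls kept with their direction were 65.2% with GC and length trends removed, 68.2% without ZT12, 72.1% with values as deposited, 73.1% without ZT0 and 83% with upper quartile scaling. With values as deposited 4972 genes were higher and 907 lower in shifted high-fat livers, and 2774 and 391 were more positive and more negative in the diet test. Upper quartile scaling gave 1506 lower genes and 428 more negative ones in the diet test. Removal of GC and length trends left 832 more positive genes in the diet test. Array weights, whose estimation stopped before convergence, gave 4305 lower genes. Without ZT12 there were 1521 lower genes. The profile test called 1 gene without the low-correlation libraries (Dr1, adjusted p = 0.00696), 1 when GC and length trends were removed as well, a choice made after seeing the data (Dr1, 0.00802), and 0 to 1 with 1 library left out, the 1 being Ubqln2 without control ZT0 replicate 3 (0.0485). The cause of these changes was not tested.

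With each library left out in turn, 2641 to 3130 genes were higher and 2134 to 2835 lower, and 1236 to 1886 and 898 to 1475 were called in the diet test. Of 148 named genes that were called, 137 kept the call in every fit in which they were tested. For Cd79a, at a median of 0.288 FPKM in shifted and 0.551 FPKM in control high-fat livers, that was 22 of the 24 fits. The calls of Fabp5, Arntl and C1qa were lost in 13, 7 and 2 of these fits, and those of Krt19, Hal, Alas2, Slc22a3, Hist1h4i, Hist1h2bc, Hsd11b1 and Hspd1 in 18, 13, 10, 9, 8, 7, 3 and 1. The call of Fabp5 was also lost with a pseudocount of 0.1 (adjusted p = 0.189). In the fit of the 24 high-fat libraries alone the calls of Fabp5 (adjusted p = 0.0899), Hal, Krt19, Hist1h4i and Slc22a3 were lost.

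Only Nr1d1 and Zbtb14, neither of them called, changed sign among the named genes. Nr1d1, at -0.06, was at 0.14 as deposited, 0.035 with upper quartile scaling, 0.0395 with GC and length trends removed, 0.0943 without low-correlation libraries, 0.19 with both changes, 0.10 with array weights, 0.14 without ZT12 and at -0.188 to 0.0751 with 1 library left out, the positive value without control ZT0 replicate 1. Zbtb14, at 0.10, was at -0.10 with GC and length trends removed, -0.0736 without low-correlation libraries as well and -0.0307 without ZT12. Of 155 named genes 20 were no longer called as deposited and 24 without ZT12, and 27 of 154 with GC and length trends removed.

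Replicate numbers are shared by the arms. Same-numbered libraries had correlations of -0.259 to 0.098 between their deviations from the group means, 0 of 12 pairs over 0.1, and 4 libraries correlated best with their own number, so the numbers were not taken to pair the libraries. The replicate block gave 2893 higher and 2378 lower genes, 0 in the profile test, 1527 and 1114 in the diet test, and kept 99.2% of calls and left all 155 named genes on their side of the threshold. Without counts, precision at low levels is unknown.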

Other observations

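Further lists are given by their counts, to be read beside the 26.4% of all genes called higher and 21.7% called lower in shifted high-fat livers. Bile acid synthesis and transport gave 6 higher and 1 lower of 21, a share of higher genes near that of all genes, with Abcc2, the canalicular export pump for conjugates, at 25.4, 58.2 and 75.8 FPKM (lowest, median and highest) in shifted and 17.5, 20.8 and 47.5 FPKM in control high-fat livers (log2 difference 1.05, limma adjusted p = 1.28e-05), and Abcc3 and Abcb4, other export pumps, at 0.79 and 0.51. Hepatocyte transcription factors gave 9 higher and 4 lower of 23. Foxo3, a forkhead factor restrained by insulin signalling, was at 1.68, 2.89 and 4.65 FPKM in shifted and 0, 0.906 and 1.54 FPKM in control high-fat livers, without overlap (log2 difference 1.08, adjusted p = 2.57e-08), and Nr5a2 and Rxra, nuclear receptors of bile acid and retinoid control, were at 0.77 and 0.44. Glucocorticoid targets gave 3 higher and 1 lower of 14. Klf9 and Nr3c1, the glucocorticoid receptor, rose by 1.11 and 0.71 (adjusted p = 2.08e-05 and 0.000224), and Hsd11b1, which regenerates active glucocorticoid, was lower at -0.27 (adjusted p = 0.0242, and 0.0664 with GC and length trends removed).

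Lists of drug metabolism had shares of calls near those of all genes. Cyp2 and Cyp3 genes gave 8 higher and 5 lower of 25, with Cyp3a59 at 1.11 and Cyp2d22 at -0.37. Cyp1a2, of caffeine oxidation, was at 51.5, 136 and 227 FPKM in shifted and 172, 243 and 331 FPKM in control high-fat livers (log2 difference -0.93, adjusted p = 0.000173). Phase II conjugation gave 6 higher and 7 lower of 24, with Ugt3a1, Ugt3a2 and Ugt1a6b at 0.92, 0.66 and -0.61. Cyp2c29, a pericentral gene, was at 249, 289 and 377 FPKM in shifted and 68.6, 131 and 224 FPKM in control high-fat livers, without overlap, and pericentral markers gave 2 higher and 1 lower of 12. Many of these genes have close copies, between which reads could be divided. Female-biased liver genes gave 3 higher and 0 lower of 6 tested, namely Cyp2b9, Acot3 and Abcd2, at 1.48, 1.13 and 0.84. NRF2 and glutathione genes gave 4 higher and 1 lower of 18, with Txnrd1, thioredoxin reductase, and Gclc, of glutathione synthesis, at 0.49 and 0.52.

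The urea cycle and amino acid list gave 7 higher and 5 lower of 25, also near the shares of all genes, and 8 lower without shifted ZT6 replicate 1. Cps1, the entry enzyme of the urea cycle, was at 363, 539.5 and 649 FPKM in shifted and 139, 299 and 514 FPKM in control high-fat livers, and Ass1, of the same cycle, at 66.3, 111 and 211 FPKM in shifted and 98.9, 197 and 498 FPKM in control high-fat livers. The first was higher and the second lower (log2 differences 0.80 and -0.94, adjusted p = 0.000171 and 0.000216). Tdo2, which opens the tryptophan ring, was at 0.95 and Fah, of tyrosine breakdown, at -0.44. NAD synthesis and sirtuins gave 2 higher and 8 lower of 18, with Sirt7, Naprt and Nadsyn1 at -0.45, -0.42 and -0.35, and 1 higher and 5 lower with GC and length trends removed (Naprt adjusted p = 0.0575). Hypoxia and glycolysis gave 4 higher and 4 lower of 15, and 2 to 4 lower with 1 library left out. Eno1 and Aldoa, enzymes of the same pathway, were at 1.20 and -0.65, without overlap of the arms for Aldoa, and Eno1 has many processed copies. Heme synthesis and iron handling gave 5 higher and 5 lower of 20, with Cpox, Slc11a2 and Fech at 0.81, 0.48 and 0.45 (Fech adjusted p = 0.0862 with those trends removed). The hypoxia and heme lists were near the shares of all genes.

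Inflammatory and stress lists follow. Acute phase proteins gave 7 higher and 4 lower of 20 (4 to 7 and 2 to 5 with 1 library left out, the lowest count of higher genes without control ZT12 replicate 2), with Steap4 and Crp at 0.84 and 0.57 and Hp at -0.50. Interferon response gave 3 higher and 2 lower of 26, with Rsad2 and Isg15 at 0.76 and -0.51, and 5 lower without control ZT0 replicate 1. Cytokines and chemokines gave 0 higher and 1 lower of 10, Nfkbia at -0.38, and 3 lower without that library. Immediate early genes gave 0 higher and 2 lower of 14, Klf2 and Ier2 at -0.74 and -0.61. Heat shock and cold-inducible genes gave 2 higher and 2 lower of 16, with Chordc1, Hspd1 and Hsf1 at 0.44, 0.28 and -0.40. Cell cycle genes gave 4 higher and 0 lower of 14, with Cdkn1a at 0.90 and Mcm4 and Mcm5 at 0.42 and 0.38 on levels near 1 FPKM. Epigenetic regulators gave 3 higher and 1 lower of 13, with Ncor1, Ezh1 and Ezh2 at 0.40, 0.25 and 0.22. Clustered histone genes gave 2 higher and 1 lower of 10, with Hist1h1c, Hist1h4i and Hist1h2bc at 1.32, 0.51 and -0.34, and their transcripts mostly lack poly(A) tails. With GC and length trends removed the calls of Hp, Isg15 and Nfkbia ended (adjusted p = 0.0908, 0.211 and 0.254). So did those of Chordc1, Ncor1, Ezh2 and Hist1h2bc (adjusted p = 0.198, 0.0565, 0.123 and 0.183), and epigenetic regulators then gave 1 higher and 6 lower.

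Further cell markers gave the following counts. Stellate cell and matrix genes gave 3 higher and 3 lower of 20, with Hgf and Reln at 0.55 and 0.32. Cholangiocyte markers gave 0 higher and 3 lower of 7 (among them Krt7 and Krt19 at -0.53 and -0.37), with sums of 17.6 to 40.1 FPKM in shifted and 26.4 to 81.8 FPKM in control high-fat livers. Lymphocyte markers gave 0 higher and 3 lower of 6 (Cd52, Cd79a and Cd4 at -0.64, -0.50 and -0.32), with sums of 8.18 to 14.9 FPKM in shifted and 10.7 to 28.1 FPKM in control high-fat livers. Exocrine pancreas markers gave 0 higher and 2 lower of 2 (Cela1 and Cela2a at -0.62 and -0.37), and erythroid markers 1 higher and 0 lower of 2 (Alas2 at 0.29). Periportal markers gave 2 higher and 1 lower of 11, with Ctsc and Hal at 0.61 and 0.32. Lipid-associated macrophage and neutrophil markers gave 0 calls among 6 and 2 members, with Lpl at -0.54 (adjusted p = 0.0517) and S100a9 at -0.29 (adjusted p = 0.35). Several of these marker calls ended with GC and length trends removed. Lymphocyte markers then gave 0 higher and 1 lower, with adjusted p = 0.0902 for Cd52 and 0.332 for Cd79a. Exocrine pancreas markers gave 0 calls, with 0.161 for Cela1 and 0.765 for Cela2a. Cholangiocyte markers gave 1 higher and 2 lower, and stellate cell and matrix genes 1 higher and 3 lower. Krt19, Hal and Reln were no longer called (adjusted p = 0.556, 0.477 and 0.146), whereas Lpl was (adjusted p = 0.01). With 1 library left out, periportal markers gave 1 to 4 higher and 1 to 3 lower members, and erythroid markers 0 to 1 higher.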
